A study of Saccharomyces cerevisiae with 9 samples.

Results

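The genes described here are 32 genes of sterol and fatty acid synthesis in budding yeast, of 5449 Saccharomyces cerevisiae genes measured. They were listed by name from textbook pathways: 23 enzymes and helpers of the ergosterol pathway, the sterol transcription factors UPC2 and ECM22, the sterol acyltransferases ARE1 and ARE2, and 5 enzymes that make, desaturate or elongate fatty acids. The choice was made with earlier results of these data known. Each of the 32 was found on the array under its current symbol, by exactly 1 probe set. The tested strain was the haploid BY4742 with LOS1 knocked out, in 3 cultures (7, 8 and 9), and the titles of its arrays also name URA3. It was set against BY4742 wild type in 6 cultures (1 to 6). Los1 is the exportin that carries tRNA from the nucleus to the cytoplasm, and the series asks what might act on lifespan downstream of it without nutrient restriction. Both strains grew in rich glucose medium (YEPD) at 30 °C and 225 rpm until an OD600 of 0.5, and RNA from each culture was hybridised to 1 Affymetrix Yeast_2 array. The labels' growth protocol gives 3 isolates per strain, with the wild-type ones grown in duplicate. Since isolates are not tied to arrays in the labels, each array was taken as 1 replicate, and p-values measure the spread between cultures. By that protocol wild-type cultures share isolates, and duplicates of 1 isolate were counted here as independent.

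Ergosterol is the main sterol of yeast membranes. Its synthesis starts from acetyl-CoA, runs through mevalonate and the isoprenoid farnesyl diphosphate, joins farnesyl units into squalene, closes squalene into lanosterol, and turns lanosterol through zymosterol into ergosterol. Several steps need molecular oxygen and heme, and the zinc-cluster factors Upc2 and Ecm22 activate many of the genes. Fatty acids are made from the same acetyl-CoA by acetyl-CoA carboxylase and the cytosolic fatty acid synthase, and Ole1 puts in the double bond that keeps membranes fluid. Sterols in excess are joined to fatty acids by Are1 and Are2 and stored in lipid droplets.

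The arrays carried the marks of their strains. LOS1 gave 3.20 ± 0.45 in the knockout (SD, n = 3) and 11.11 ± 0.16 in wild type (SD, n = 6) on the log2 scale used throughout. It was at background in every knockout array and at least 84.1-fold lower there. URA3 was at background in every wild-type array and at least 72.8-fold higher in the knockout, so LOS1 and URA3 differ together and what goes with either cannot be told apart. LEU2 and LYS2 lay between 4.08 and 4.86 on all 9 arrays, close to the background level of 4.68 to 4.74 set by fission yeast probe sets. HIS3 was higher in the knockout by 0.69 (limma adjusted p = 3.68e-04). BY4742 is of mating type alpha: its 4 alpha-specific markers (MF(ALPHA)1, MF(ALPHA)2, STE3, SAG1) gave 11.75 to 13.97 over the arrays, and 6 a-specific markers gave 5.11 to 7.82. Over all genes, 301 passed the limma threshold of 0.05 on adjusted p, 143 higher and 158 lower in the knockout, and after repeated quantile normalization the split was 175 higher and 126 lower.

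Transcripts of sterol and fatty acid synthesis differed little between the strains. None of the 32 genes passed the limma threshold (0 higher, 0 lower), where 5.52% of all genes did, 2.62% higher and 2.90% lower. The smallest adjusted p was 0.0608 (ERG11, the lanosterol demethylase). At an unadjusted p under 0.05 there were 7 genes, all with values below wild type: ERG11, ERG26, HMG2, ERG4, ERG12, ACC1 and ERG24. That is 21.9% of the 32. Among all genes, 22.0% had such a p in either direction and 13.2% had it with the knockout lower. The size of any difference was bounded: over the 32 genes, the 95% intervals of limma, which are not adjusted for the number of genes, ran from -0.45 (ERG4) to 0.23 (UPC2), that is from 1.37-fold lower to 1.17-fold higher.

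Most of the small differences had the same sign. The knockout mean was below the wild-type mean for 26 of the 32 genes, where 54.7% of all genes had a difference below 0. The median over the 32 was -0.06, beside -0.01 over all genes, and the differences ran from -0.24 (ERG4) to 0.03 (IDI1). The knockout and wild-type cultures did not overlap for 3 genes, ERG11, ERG12 and ERG26, each time with every knockout culture below every wild-type culture. Groups without overlap occurred in 12.6% of all genes, and in 7.38% with the knockout lower, beside 9.38% of the 32. All 32 genes were read from the same 9 arrays, so these are not independent observations. Without knockout culture 8 the median was -0.04 and 23 genes had a difference below 0.

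**Figure D1:**
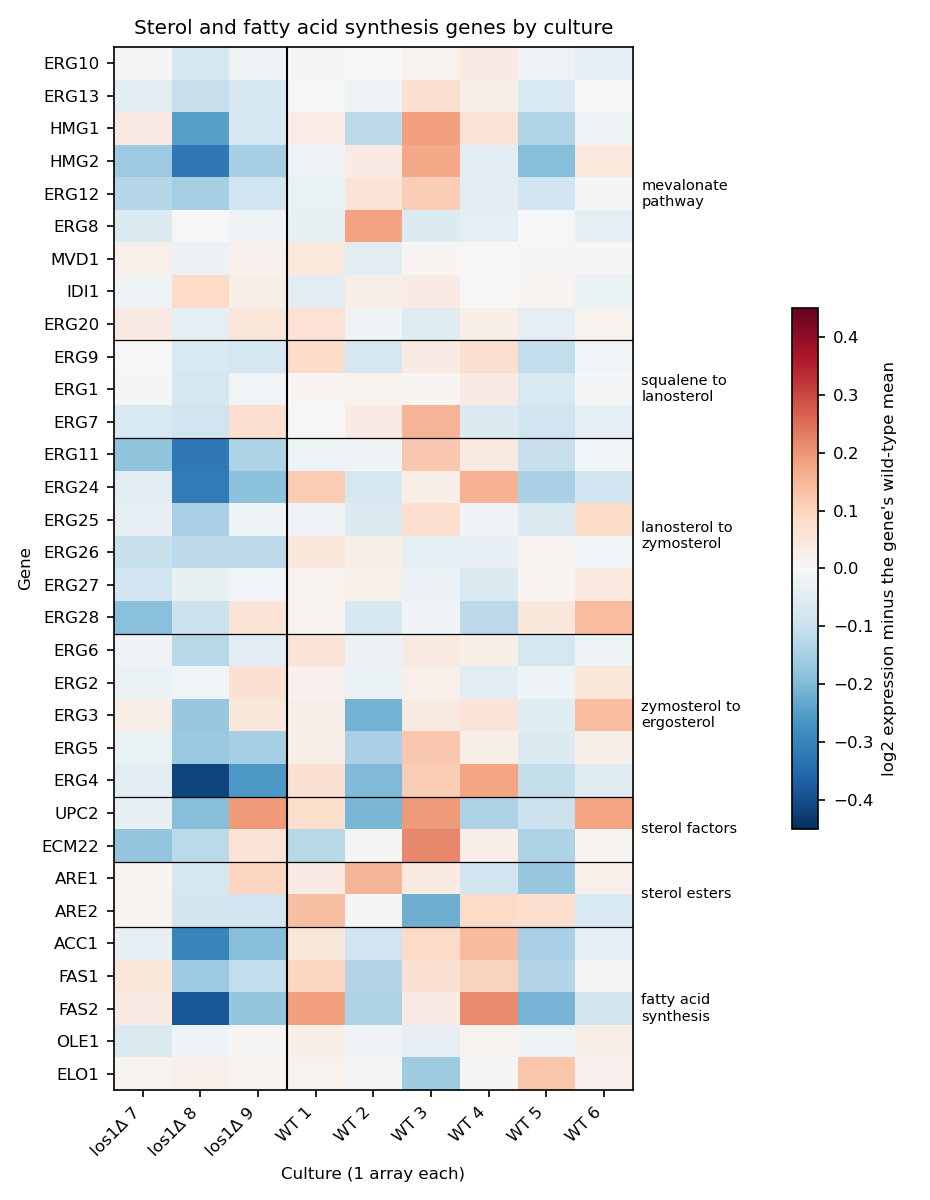
Heat map of the 32 genes (rows, grouped by step of the pathway) in the 3 LOS1 knockout cultures (left, labelled los1Δ) and the 6 wild-type cultures (right, WT). Colour gives log2 expression minus the gene's mean over the wild-type cultures. Culture 8 has the most blue: 30 of the 32 genes lay below the wild-type mean there, with ERG4, FAS2, HMG2, ERG11 and ERG24 the farthest below.

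**Figure D2:**
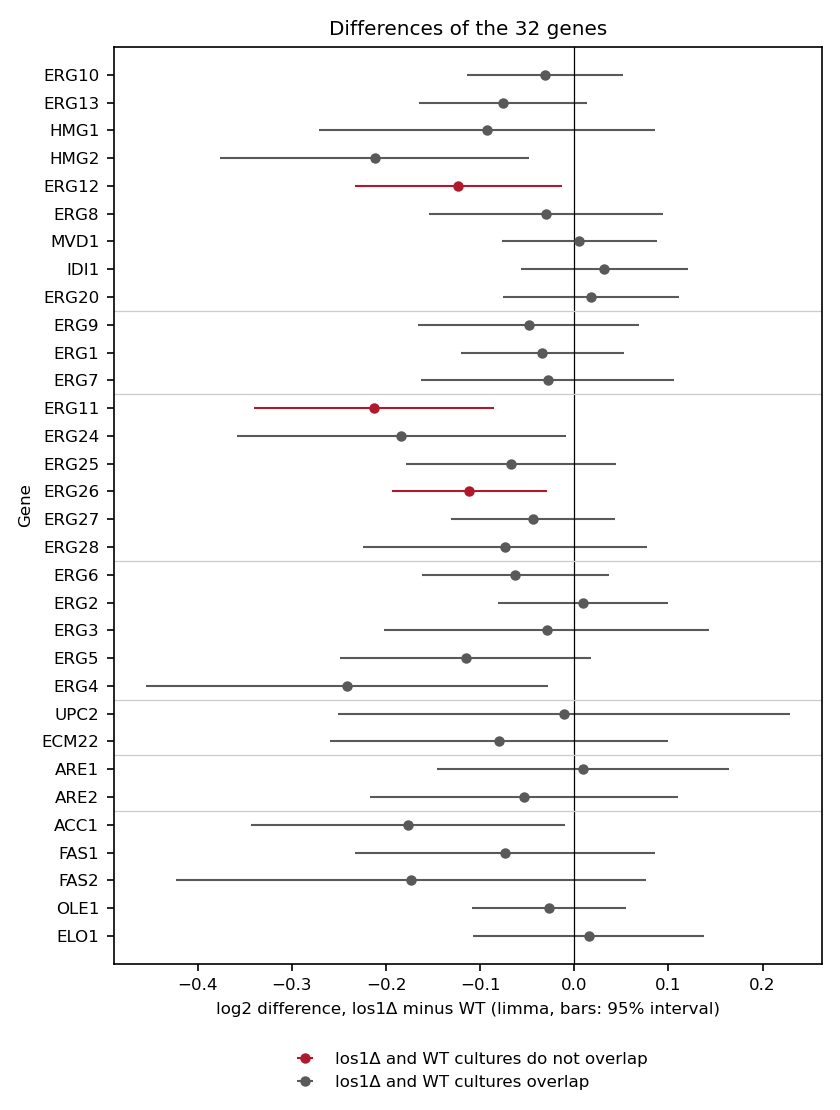
Log2 difference of each gene, LOS1 knockout minus wild type, with its 95% interval from limma (n = 3 and n = 6). The 7 intervals that lie wholly below 0 belong to HMG2, ERG12, ERG11, ERG24, ERG26, ERG4 and ACC1, and red marks the 3 genes whose cultures did not overlap.

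The mevalonate branch, from acetyl-CoA to farnesyl diphosphate, had 9 genes with a median difference of -0.03, and 6 of the 9 differences were below 0. Its farthest member was HMG2 (YLR450W), one of the isozymes of HMG-CoA reductase, the regulated step of the branch. HMG2 had log2 values of 10.61, 10.45 and 10.62 in knockout cultures 7, 8 and 9, against 10.58 at the lowest, 10.78 at the median and 10.94 at the highest in wild type. Cultures 7 and 9 lay above the lowest wild-type culture, so the groups overlapped, and the difference of -0.21 ± 0.07 (SE) stayed above the threshold (limma adjusted p = 0.131). Without wild-type culture 5, its lowest wild-type value, the difference was -0.25 and passed (adjusted p = 0.0378).

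ERG12 (YMR208W), mevalonate kinase, had 11.40, 11.38 and 11.44 in knockout cultures 7, 8 and 9, against 11.45 at the lowest, 11.51 at the median and 11.64 at the highest in wild type. All 3 knockout values were below all wild-type values, though culture 9 nearly met the lowest wild-type culture. The difference was -0.12 ± 0.05 (SE, 1.09-fold lower) and did not pass (adjusted p = 0.178). HMG1 (YML075C), the other HMG-CoA reductase, averaged 11.21 ± 0.14 in the knockout and 11.30 ± 0.12 in wild type (SD), a difference of -0.09 with an interval of -0.27 to 0.09. It was -0.02 without knockout culture 8, -0.16 without knockout culture 7 and -0.06 without wild-type culture 3.

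The other steps of the branch were closer to wild type. ERG10 (YPL028W), the thiolase that starts the branch, had 13.51, 13.43 and 13.48 in knockout cultures 7, 8 and 9, against 13.47 at the lowest, 13.51 at the median and 13.54 at the highest in wild type. Culture 8 was just under the wild-type range and the others inside it, and the wild-type SD of 0.0261 was the smallest of the 32 genes. ERG13, HMG-CoA synthase, had a difference of -0.08, with knockout cultures 8 and 9 below every wild-type culture and culture 7 inside their range. The phosphomevalonate kinase ERG8 had -0.03, the decarboxylase MVD1 0.01, the isomerase IDI1 0.03 and farnesyl diphosphate synthase ERG20 0.02. For these 4 genes the adjusted p lay between 0.686 and 0.95, and the intervals ran from -0.15 (ERG8) to 0.12 (IDI1).

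From squalene to lanosterol the 3 differences were close to 0: -0.05 for ERG9, squalene synthase, -0.03 for ERG1, squalene epoxidase, and -0.03 for ERG7, lanosterol synthase. Their knockout and wild-type cultures overlapped, and the lowest adjusted p was 0.634 (ERG9). The steps from lanosterol to zymosterol had a lower median. All 6 genes had a difference below 0, with a median of -0.09, and 3 of them (ERG11, ERG26, ERG24) had an unadjusted p under 0.05. Over all genes, 54.7% of differences were below 0 and 13.2% were so with such a p, and 6 genes are too few to set against these shares.

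ERG11 (YHR007C), the cytochrome P450 that removes a methyl group from lanosterol and is the target of azole antifungals, was the gene with the smallest p. It had 12.83, 12.69 and 12.87 in knockout cultures 7, 8 and 9, against 12.91 at the lowest, 12.99 at the median and 13.13 at the highest in wild type. All knockout cultures lay below all wild-type cultures, with culture 8 farthest down. The means were 12.80 ± 0.10 in the knockout (SD, n = 3) and 13.01 ± 0.08 in wild type (SD, n = 6). The difference of -0.21 ± 0.06 (SE, 1.16-fold lower, 95% interval -0.34 to -0.08) did not pass at adjusted p = 0.0608. It passed in 5 of 17 alternative fits: after repeated quantile normalization (adjusted p = 0.037), with an intensity trend and robust prior (0.0274), with array weights (0.0411), with a variance per group (0.048) and without wild-type culture 5 (0.0345). Over the 17 fits its difference stayed between -0.25 and -0.16.

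ERG26 (YGL001C), a decarboxylase of the complex that strips the next methyl groups, had 11.81, 11.80 and 11.80 in knockout cultures 7, 8 and 9, against 11.87 at the lowest, 11.91 at the median and 11.97 at the highest in wild type. The groups did not overlap. Its knockout cultures were nearly equal (SD 0.01), and the difference was -0.11 ± 0.04 (SE, adjusted p = 0.117). ERG24 (YNL280C), the sterol reductase that acts after ERG11, had 11.58, 11.32 and 11.45 in knockout cultures 7, 8 and 9, against 11.49 at the lowest, 11.61 at the median and 11.79 at the highest in wild type. Cultures 8 and 9 lay below every wild-type culture and culture 7 inside their range, and the difference was -0.18 ± 0.08 (SE, adjusted p = 0.206), or -0.12 without culture 8. The partners of ERG26 in the demethylation complex had differences of -0.07 (ERG25, the methyl oxidase), -0.04 (ERG27, the keto reductase) and -0.07 (ERG28, the scaffold), with overlapping groups and adjusted p of 0.469, 0.555 and 0.567.

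From zymosterol to ergosterol, 4 of 5 genes had a difference below 0. ERG4 (YGL012W), the reductase of the last step, had the lowest difference of the 32 genes. It had 11.91, 11.55 and 11.71 in knockout cultures 7, 8 and 9, against 11.77 at the lowest, 11.97 at the median and 12.14 at the highest in wild type. Culture 7 lay among the wild-type values, while cultures 8 and 9 lay below all of them. The difference of -0.24 ± 0.10 (SE, 1.18-fold lower) missed the threshold (adjusted p = 0.175) and was -0.16 without culture 8. ERG5 (YMR015C), the second cytochrome P450 of the pathway, had 11.20, 11.06 and 11.08 in knockout cultures 7, 8 and 9, against 11.09 at the lowest, 11.26 at the median and 11.35 at the highest in wild type. Its cultures 8 and 9 were just under the lowest wild-type culture, and the difference was -0.12 (adjusted p = 0.297).

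The other late genes were nearer to wild type. ERG2 (YMR202W), a sterol isomerase, had 13.45, 13.46 and 13.54 in knockout cultures 7, 8 and 9, against 13.43 at the lowest, 13.48 at the median and 13.53 at the highest in wild type. Culture 9 was at the top of all 9 and the others lay in the wild-type range, with a difference of 0.01 and an interval of -0.08 to 0.10. ERG6, the methyltransferase that gives ergosterol its side-chain methyl group, had -0.06 (adjusted p = 0.443), and the desaturase ERG3 had -0.03 (adjusted p = 0.861).

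**Figure D3:**
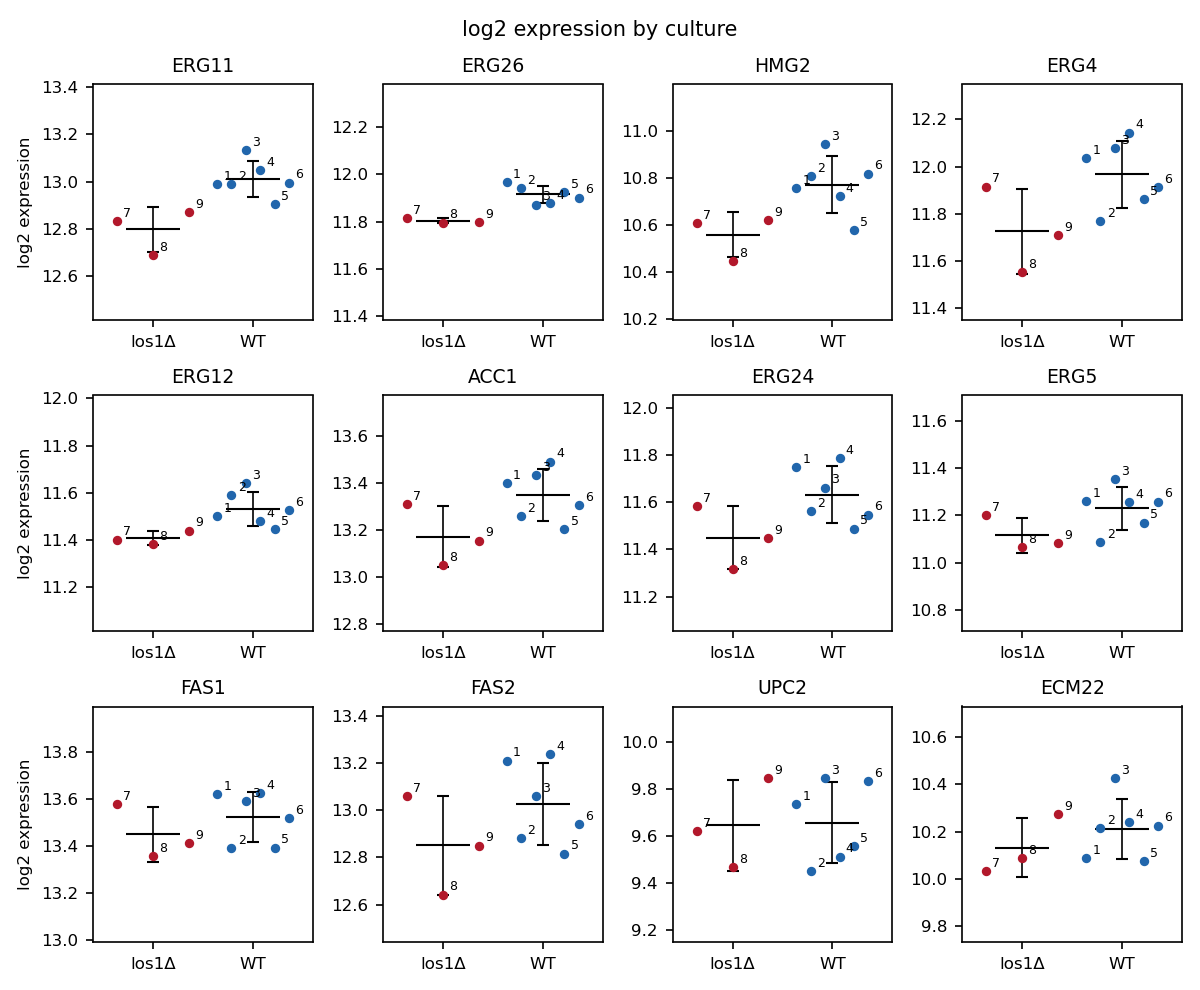
Log2 expression by culture for the 8 genes with the smallest p (ERG11 to ERG5) and for FAS1, FAS2, UPC2 and ECM22. Red points are LOS1 knockout cultures 7 to 9, blue points wild-type cultures 1 to 6, black bars mean ± SD, and each panel spans 1 log2 unit. ERG11, ERG26 and ERG12 show no overlap, while culture 7 lies among the wild-type cultures in HMG2, ERG4, ACC1, ERG24, ERG5, FAS1, FAS2 and UPC2.

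The sterol transcription factors did not pass the test either. UPC2 (YDR213W), the main inducer when sterols or oxygen are short, had 9.62, 9.47 and 9.85 in knockout cultures 7, 8 and 9, against 9.45 at the lowest, 9.65 at the median and 9.85 at the highest in wild type. The knockout values covered nearly the whole wild-type range, and the difference was -0.01 with an interval of -0.25 to 0.23 (adjusted p = 0.962). ECM22 (YLR228C), its paralog, had 10.03, 10.09 and 10.27 in knockout cultures 7, 8 and 9, against 10.07 at the lowest, 10.22 at the median and 10.43 at the highest in wild type. Here too the groups overlapped (difference -0.08, interval -0.26 to 0.10, adjusted p = 0.6). These are transcript levels, and both factors are also regulated as proteins, which arrays do not measure. The acyltransferases had differences of 0.01 (ARE1, interval -0.15 to 0.16) and -0.05 (ARE2, interval -0.22 to 0.11), with overlapping groups.

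Among the fatty acid genes, 4 of 5 had a difference below 0. ACC1 (YNR016C), acetyl-CoA carboxylase, which makes malonyl-CoA for fatty acid synthesis, had 13.31, 13.05 and 13.15 in knockout cultures 7, 8 and 9, against 13.20 at the lowest, 13.35 at the median and 13.49 at the highest in wild type. Cultures 8 and 9 were below every wild-type culture and culture 7 was inside their range (difference -0.18 ± 0.08 (SE), adjusted p = 0.202). Without culture 8 the ACC1 difference was -0.12.

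FAS1 (YKL182W) and FAS2 (YPL231W) encode the beta and alpha subunits of fatty acid synthase. FAS1 had 13.58, 13.36 and 13.41 in knockout cultures 7, 8 and 9, against 13.39 at the lowest, 13.55 at the median and 13.62 at the highest in wild type. FAS2 had 13.06, 12.64 and 12.85 in knockout cultures 7, 8 and 9, against 12.82 at the lowest, 13.00 at the median and 13.24 at the highest in wild type. In both genes culture 8 alone lay below the wild-type range, and FAS2 had the largest wild-type SD of the 32 genes (0.174). The differences were -0.07 (FAS1, adjusted p = 0.582) and -0.17 (FAS2, adjusted p = 0.401), and without culture 8 they were -0.03 and -0.07, without culture 7 -0.14 and -0.28. OLE1 (YGL055W), the fatty acid desaturase, was steady, at 13.24 ± 0.04 in the knockout (SD, n = 3) and 13.27 ± 0.03 in wild type (SD, n = 6), with a difference of -0.03 and an interval of -0.11 to 0.05. ELO1, which elongates medium-chain fatty acids, had 0.02 (interval -0.11 to 0.14).

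The cultures themselves differed in these genes within each strain. Relative to the wild-type mean, the mean over the 32 genes was -0.04, -0.14 and -0.04 in knockout cultures 7, 8 and 9. In wild type it was lowest in culture 5 (-0.07) and culture 2 (-0.04) and highest in culture 3 (0.04). The mean in knockout cultures 7 and 9 was no lower than that of wild-type culture 5. Culture 8 was the lowest knockout culture for 22 of the 32 genes, where it was the lowest for 41.0% of all genes. Culture 5 was the lowest wild-type culture for 14 of the 32 genes, against 26.4% of all genes. The median deviation of all genes was -0.02 in both of these cultures. Without culture 8 the differences of ERG25 and ERG6 were both -0.03. Without culture 7 those of ERG27, ERG28 and ECM22 were -0.02, -0.02 and -0.03, and those of ERG9 and ARE2 were -0.07 and -0.09.

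A set of members split the wild-type cultures in the same way around their mean, a pattern picked out after the values were seen. In HMG1, ERG9, ERG24, ERG6, ERG4, ACC1, FAS1 and FAS2, wild-type cultures 1, 3 and 4 lay above the wild-type mean and cultures 2, 5 and 6 below it. These are 8 of the 32 genes, and 9.36% of all genes had the same split. In 7 of the 8 (all but ERG9) the knockout cultures also stood in the order 8, 9, 7 from low to high, a combination found in 5.06% of all genes. Members did not all share it: ERG26 had cultures 1, 2 and 5 above its wild-type mean, and ARE2 had cultures 1, 4 and 5. The median wild-type SD of single genes was 0.0887 over the 32 genes and 0.0895 over all genes, which were not matched for brightness.

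Related genes could be set against each other within each array, as the change of their log2 ratio relative to the wild-type mean. For HMG1 over HMG2 this change was 0.20, 0.08 and 0.08 in knockout cultures 7, 8 and 9, against -0.15 to 0.11 in wild type. The groups overlapped. For FAS1 over FAS2 it was 0.02, 0.22 and 0.06 in the knockout cultures, against -0.11 to 0.08 in wild type, with culture 8 alone outside. UPC2 over ECM22 ran from -0.07 to 0.14 in the knockout and from -0.21 to 0.20 in wild type. ARE1 over ARE2 ran from -0.0027 to 0.18 in the knockout and from -0.24 to 0.26 in wild type, so neither ratio separated the strains.

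Lists of genes around the synthesis pathway held some past the threshold, at a share near that of all genes. These lists were chosen with earlier results of these data known. Of 95 genes in 11 further lists, all measured, 7 passed: 4 rose (AUS1, PRY1, INO2, ROX1) and 3 fell (PDR11, NCR1, FAA2). That is 7.37%, beside 5.52% of all genes, and the median difference of the 95 was -0.02. Over the 95 genes, the cultures of the strains did not overlap for 11, these 7 among them, and over all genes they did not for 12.6%. The count depended on single arrays. It was 1 without knockout culture 8, 3 without knockout culture 7 and 6 without knockout culture 9. Without wild-type cultures 1, 2 and 4 it was 2, 3 and 4, and it was 8 at most. Over all genes the count moved as well, from 301 to 126, 170 and 148 without knockout cultures 8, 7 and 9. Without wild-type cultures 1, 2 and 4 the all-gene count was 205, 218 and 183, and without wild-type culture 5 it was 478. INO2 passed in each of the 17 alternative fits.

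The sterol importers changed in opposite directions. Aus1 and Pdr11 are ABC transporters that take up sterol when cells lack oxygen. AUS1 (YOR011W) had 10.29, 10.50 and 10.57 in the knockout, against 10.03 to 10.25 in wild type, and rose by 0.31 (SE 0.07, 1.24-fold, adjusted p = 0.0373). PDR11 (YIL013C) had 8.26, 8.16 and 8.26 in the knockout, against 8.39 to 8.55 in wild type, and its difference was -0.27 (SE 0.05, 1.21-fold lower, adjusted p = 0.00928). AUS1 lost its call without wild-type culture 1, 2, 4 or 6 and without knockout culture 8 or 9 (adjusted p up to 0.154). PDR11 lost its call without knockout culture 8 (adjusted p = 0.0584). The other 8 genes of that list, anaerobic cell wall genes and regulators, did not pass.

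Among genes that handle sterols outside synthesis, PRY1, which encodes a secreted sterol-binding protein, rose, and NCR1 fell. PRY1 (YJL079C) had 10.60, 10.80 and 10.57 in the knockout, against 10.25 to 10.46 in wild type (difference 0.29, adjusted p = 0.0313). NCR1 (YPL006W), whose product in the vacuole membrane is related to the human Niemann-Pick C1 protein, had 10.30, 10.22 and 10.40 in the knockout, against 10.47 to 10.53 in wild type (difference -0.20, adjusted p = 0.0277). PRY1 was the 1 gene of 7 past the threshold among sterol ester hydrolysis and export, and NCR1 the 1 of 14 among sterol transport. PRY1 lost its call without wild-type culture 1, 2, 3 or 4 and without each knockout culture (adjusted p up to 0.136). NCR1 lost its call without wild-type culture 1, 2 or 4 and without knockout culture 7 or 8 (adjusted p up to 0.13).

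INO2 had the clearest difference near fatty acid synthesis. Ino2 pairs with Ino4 to activate genes of phospholipid synthesis, and FAS1, FAS2 and ACC1 are known targets. INO2 (YDR123C) had 8.22, 8.19 and 8.27 in the knockout, against 7.77 to 7.96 in wild type, and rose by 0.37 (SE 0.05, 1.29-fold, adjusted p = 0.00218). INO4 had 9.02, 8.97 and 8.64 in the knockout, against 8.59 to 8.81 in wild type, and its difference of 0.16 missed the threshold (adjusted p = 0.27) except without knockout culture 9 (adjusted p = 0.0473). As given above, FAS1, FAS2 and ACC1 had differences of -0.07, -0.17 and -0.18 that did not pass. The other 4 regulators of that list did not pass either.

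FAA2 and ROX1 were the remaining genes past the threshold. FAA2 (YER015W), a peroxisomal acyl-CoA synthetase that feeds fatty acids into oxidation, had 7.89, 8.19 and 8.33 in the knockout, against 8.43 to 8.66 in wild type, and its difference was -0.41 (SE 0.09, 1.33-fold lower, adjusted p = 0.0272). ROX1 (YPR065W), a repressor of genes used when oxygen is low, itself transcribed in the presence of heme, had 10.57, 10.44 and 10.35 in the knockout, against 9.91 to 10.32 in wild type, and rose by 0.39 (SE 0.08, 1.31-fold, adjusted p = 0.0264). FAA2 lost its call without wild-type culture 1, 2 or 3 and without knockout culture 7 or 8 (adjusted p up to 0.0819). ROX1 lost its call without wild-type culture 1 or 2 and without knockout culture 7 or 8 (adjusted p up to 0.0996). The other 12 genes of the oxygen and heme list did not pass, among them HEM13, a heme synthesis gene that is switched on when oxygen is low (0.16, adjusted p = 0.147).

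**Figure D4:**
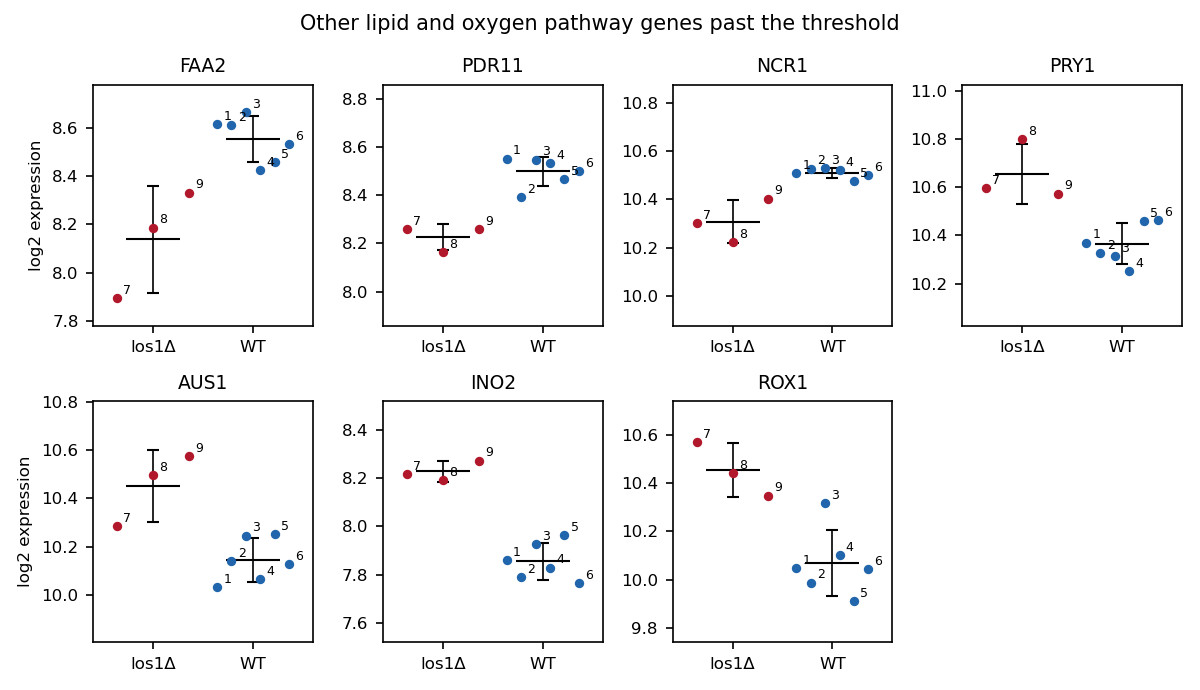
Log2 expression by culture for the 7 genes of the further lists that passed the limma threshold, ordered from the largest fall to the largest rise. Red points are LOS1 knockout cultures 7 to 9, blue points wild-type cultures 1 to 6, black bars mean ± SD, and each panel spans 1 log2 unit. FAA2, PDR11 and NCR1 lie below wild type in each knockout culture, and PRY1, AUS1, INO2 and ROX1 lie above it.

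In the other lists 0 genes passed by limma, with counts at an unadjusted p under 0.05 of 3 of 11 for other isoprenoid branches, 2 of 5 for very long chain elongation, 2 of 8 for mitochondrial fatty acid synthesis, 0 of 6 for partners of the sterol enzymes and 0 of 6 for regulators of OLE1, where 22.0% of all genes had such a p. The isoprenoid branch genes with the smallest p were COQ1, which makes the side chain of ubiquinone (-0.17, adjusted p = 0.0789), and COX10, the farnesyltransferase that turns heme B into heme O (-0.17, adjusted p = 0.0887). In both, every knockout culture lay below every wild-type culture. COX10 passed with array weights (adjusted p = 0.0432) and without wild-type culture 2 (0.0414). Over the 95 genes of the further lists, 61.1% of differences were below 0. They were 12 of 14 for sterol transport, 5 of 6 for regulators of OLE1 and 5 of 13 for oxygen and heme regulation. Very long chain elongation had 5 of 5 differences below 0, beside 54.7% of all genes, and a median of -0.11. Its smallest p values belonged to the elongase gene ELO3 (-0.16, adjusted p = 0.12) and the dehydratase gene PHS1 (-0.16, adjusted p = 0.213). Without knockout culture 8 these were -0.09 for ELO3 and -0.11 for PHS1.

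Mitochondrial fatty acid synthesis, a separate pathway that makes the precursor of lipoic acid, had a median of 0.01. Its smallest p values belonged to the acyl carrier protein ACP1 (0.16, adjusted p = 0.12) and the reductase OAR1 (0.18, adjusted p = 0.211), and ACP1 passed without wild-type culture 5 (adjusted p = 0.0488). Among partners of the sterol enzymes, NCP1, the reductase that passes electrons to Erg11 and Erg5, had -0.10 (adjusted p = 0.351), and NSG2, which acts on the stability of Hmg2, had 0.04 (adjusted p = 0.67). MGA2, which encodes a membrane-bound activator of OLE1, had -0.10 (adjusted p = 0.371), and UBX2, whose product helps to process it, had -0.07 (adjusted p = 0.356). The sterol ester lipase gene TGL1 had -0.17, the sterol transport gene LAM5 -0.12 and the fatty acid transporter gene FAT1 -0.18, with adjusted p of 0.246, 0.173 and 0.192. Single knockout cultures moved the TGL1 difference to -0.09 (without culture 8), OAR1 to 0.10 (without culture 9) and MGA2 to -0.06 (without culture 7).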

How the data were processed

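RNA from 3 LOS1 knockout and 6 wild-type cultures was measured on Affymetrix Yeast_2 arrays, 1 per culture, and grouped by sample titles. The authors deposited log2 expression values per probe set, made with RMA per the submitters' processing notes (version not given in the sources used here). RMA gives the probe intensities of all arrays the same distribution, so a shift of the whole transcriptome is lost, and dim signals are compressed. The S. cerevisiae gene values still differed slightly between arrays. Their median deviation from the wild-type mean ran from -0.02 (knockout culture 8) to 0.02 (wild-type culture 1). Of 10928 probe sets, 5498 matched S. cerevisiae assembly R64 by identifier. The brightest probe set per gene was kept (5449 genes). The 1746 other probe sets with a name were read as S. pombe, and their 95th percentile on each array was the background level. Where a strain lay under background, a fold is a bound with that strain set to background. Signals of different probe sets were not compared as levels. Scanner intensities were not used here. Precision is limited by how many arrays there were and how many isolates they came from.

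Differences (knockout minus wild type) were tested with limma 3.58.1 (lmFit, eBayes, 2-sided, R 4.3.3), p-values being adjusted by Benjamini-Hochberg over all 5449 genes, with 0.05 as the threshold. The script was tested on simulated data. Members and lists were chosen with earlier results of these data known, so counts over them are descriptions and no list was tested as a set. Named, beside strain markers, were all members, list genes past the threshold and up to 2 genes with the smallest p per list. Alternatives were median centring, repeated quantile normalization and leaving out dim genes. Others were a test over all 5498 probe sets matched to S. cerevisiae and the mean of probe sets of 1 gene. The rest were eBayes with trend and robust settings, array weights, a separate variance per group, a threshold of 0.01, and leaving out each array.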

Additional observations from a re-analysis of the deposited data

Results flagged for a closer look

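Of the 54 members and list genes named, 1 had a wild-type culture far from the others: ERG8, phosphomevalonate kinase, at 12.33 in wild-type culture 2, where the next highest wild-type culture had 12.15 and the lowest 12.09. The gap was 0.739 of the range of the 6 cultures. Chance alone puts about 5% of such groups past the limit used. Without that culture the ERG8 difference was 0.01, and with it -0.03.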

How the results depend on the processing

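The 32 genes kept a median difference below 0 in all 18 alternatives, between -0.07 (without knockout culture 9) and -0.04, and 23 to 30 of them had a difference below 0. The number of the 32 past the threshold was 1 (ERG11) after repeated quantile normalization, with an intensity trend and robust prior, with array weights and with a variance per group. Leaving out 1 array gave 0 to 2, the 2 being ERG11 and HMG2 without wild-type culture 5. Over all genes the count was 498 with array weights and 110 at an adjusted p under 0.01, and 126 (without knockout culture 8) to 478 (without wild-type culture 5) on leaving out 1 array. The list genes past the threshold numbered 2 at an adjusted p under 0.01 and 1 to 8 on leaving out 1 array. The cause of these shifts was not tested.

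Differences near 0 changed sign, none of them past the threshold. UPC2 was at 0.0068 after median centring, 0.0076 after repeated quantile normalization and 0.031 with array weights, ERG2 at -0.00042 after repeated quantile normalization, and ERG7 at 0.0038 with array weights. On leaving out 1 array the ranges were -0.044 to 0.0058 for ERG8, -0.0053 to 0.022 for MVD1, -0.0013 to 0.046 for ERG20, -0.080 to 0.0031 for ERG7, -0.020 to 0.029 for ERG2, -0.072 to 0.041 for ERG3, -0.11 to 0.078 for UPC2, -0.035 to 0.052 for ARE1 and -0.016 to 0.041 for ELO1. No paired analysis was possible because the strains share no replicate numbers.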
